A study of Caenorhabditis elegans with 12 samples.

Results

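The hrg genes of the nematode Caenorhabditis elegans are named as heme-responsive genes, and 7 of them (hrg-1 to hrg-7) are described here out of 46748 genes in the count table. They were taken by symbol, as the heme importers, the heme trafficking proteins and the heme signal hrg-7. The family was chosen by the values of hrg-7, which led the comparison of bcat-1 RNAi with control at day 1, and so the day 1 values of all 7 genes are given as a description, without a test. RNA was measured by sequencing of whole hermaphrodites of the wild-type strain N2. The worms ate bacteria with a bcat-1 RNAi vector or with the empty vector L4440, and harvest was at day 1 or day 2. The 4 groups, with 3 libraries apiece, were bcat-1 at day 1, L4440 at day 1, bcat-1 at day 2 and L4440 at day 2. All groups shared the strain, the sex and the feeding with vector-bearing bacteria. The labels do not say whether libraries came from separate cultures, so p-values measure only the spread between these samples.

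C. elegans cannot make heme, the iron-containing cofactor of cytochromes, catalases, peroxidases and globins, and takes all of it from its food. HRG-4 brings heme into intestinal cells at the plasma membrane, and HRG-1 moves it out of endosomal and lysosome-related compartments into the cytosol. HRG-3 is a small secreted protein that carries heme from the intestine to embryos and other tissues, and HRG-2 is a membrane protein of the epidermis. HRG-7 resembles aspartic proteases and is secreted by the intestine as a signal that links heme supply in the gut to the rest of the body. HRG-5 and HRG-6 are relatives of HRG-4. Several hrg transcripts are known to be more abundant in worms that are short of heme.

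In Ensembl annotation 115 of WBcel235, all 7 genes were protein-coding. hrg-1 (WBGene00019830) lies on chromosome X at 4008057 to 4016221 on the minus strand. hrg-4 (WBGene00009493, 11030143 to 11030993), hrg-5 (WBGene00009494, 11028289 to 11029428) and hrg-6 (WBGene00009495, 11032588 to 11033599) are close neighbours on chromosome IV, and hrg-6 is on the strand opposite to the other two. hrg-2 (WBGene00010473, 12409415 to 12410513), hrg-3 (WBGene00010256, 9756468 to 9757019) and hrg-7 (WBGene00007605, 12742041 to 12744171) are on chromosome V. Exons of hrg-3 share 93 bases with F58E6.11 on the opposite strand, and those of hrg-7 share 7 bases with C15C8.7. The labels do not state a strand setting for counting, so reads in such shared bases cannot be assigned to either gene. hrg-4, hrg-5 and hrg-6 are related genes, and how reads that match more than 1 of them were counted is not stated in the labels.

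The libraries held 29291731 to 43855795 counts. Levels are given as CPM, the count of a gene scaled to the size of its library, with library sizes multiplied by TMM factors that correct for differences in composition. Replicate numbers only name the libraries here and are not part of their labels. The library labelled bcat-1 day 2 and numbered replicate 3 stood apart, with 41.5% of its counts in ribosomal RNA genes and a TMM factor of 0.665. L4440 day 2 replicate 3 held 6.74% and the other libraries 0.072% to 2.5%. The RNAi target bcat-1 checks the labels: it stood at 18.01 to 27.1 CPM in the bcat-1 libraries of day 1, against 156 to 179.5 CPM in the L4440 libraries of day 1. At day 2 it reached 13.9 CPM in replicate 1 and 17.3 CPM in replicate 2 of the bcat-1 group, against 116.5 to 157 CPM in the L4440 libraries. The library labelled bcat-1 day 2 replicate 3 held 329 CPM of it, above every L4440 library of either day. A lowered bcat-1 level was thus not seen in this library, and the reason was not tested. The defining markers of intestine were present as a whole list, with 13 of 13 found and none at 0 throughout.

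The hrg genes differed widely in level. Per kilobase of exon, hrg-7 had the highest mean of the 7 in every group, at 54.8 ± 11.4 CPM per kb in bcat-1 and 23.6 ± 4.03 in L4440 at day 1, and at 40.2 ± 3.61 in bcat-1 and 20.2 ± 3.39 in L4440 at day 2 (SD, n = 3 each). The heme transporters hrg-1 and hrg-4 came next. In L4440 worms of day 2 hrg-1 averaged 4.57 ± 0.686 CPM per kb and hrg-4 averaged 4.42 ± 0.453 CPM per kb, a gap smaller than the spread of either. In bcat-1 worms of day 2 hrg-4 averaged 11.0 ± 4.14 CPM per kb and hrg-1 averaged 8.78 ± 0.809 CPM per kb. That gap was smaller than the spread of hrg-4 and larger than that of hrg-1. hrg-6, hrg-3 and hrg-2 followed at group means of 0.319 to 1.39 CPM per kb. hrg-5 was barely detected, with 1 to 5 counts in each library and group means of 0.0474 to 0.133 CPM per kb.

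**Figure D1:**
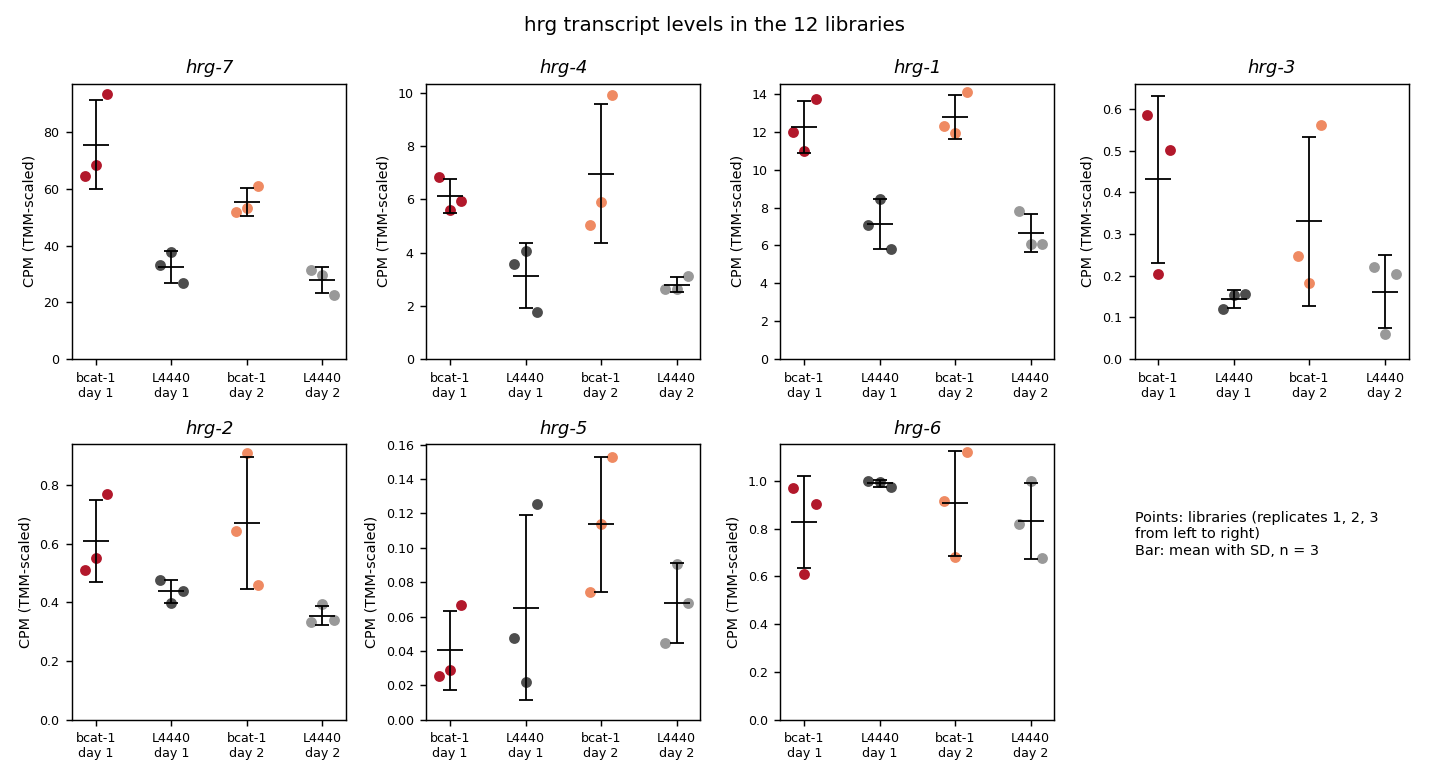
Level of each hrg gene (CPM, linear axis from 0) in the 4 groups; points are libraries, bars are the mean with SD (n = 3). hrg-7, hrg-4 and hrg-1 lie higher in the bcat-1 libraries than in the L4440 libraries of the same day, and hrg-6 does not.

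The comparison of bcat-1 RNAi with L4440 at day 2 uses other libraries than the day 1 contrast, although the day 1 libraries add to the estimate of spread in the fit and the day 2 results were known when the family was chosen. Here the heme signal hrg-7 and the heme transporter hrg-1 rose. hrg-7 stood at 51.8, 53.4 and 61.1 CPM in the bcat-1 libraries, against 31.5, 29.5 and 22.6 CPM in the L4440 libraries. Each bcat-1 library lay above each L4440 library, and the mean was 55.5 ± 4.98 CPM in bcat-1 and 27.8 ± 4.67 CPM in L4440 (SD, n = 3 each). The fold was 1.99 (log2 0.99, SE 0.17, 95% interval 0.61 to 1.37, edgeR quasi-likelihood test with Benjamini-Hochberg adjusted p = 0.0343), which placed hrg-7 at rank 44 by p of 14567 genes tested.

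hrg-1, the transporter of internal membranes, stood at 12.3, 11.9 and 14.1 CPM in the bcat-1 libraries of day 2, against 7.81, 6.08 and 6.07 CPM in the L4440 libraries. The groups did not overlap. The means were 12.8 ± 1.18 CPM in bcat-1 and 6.65 ± 1.00 CPM in L4440, and the fold was 1.91 (log2 0.94, SE 0.17, 95% interval 0.575 to 1.299, edgeR adjusted p = 0.0356).

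The plasma membrane importer hrg-4 had the largest value of the members at day 2, 2.48-fold, but did not pass the test (log2 1.31, SE 0.31, 95% interval 0.64 to 1.98, edgeR adjusted p = 0.14). It stood at 5.05, 5.89 and 9.94 CPM in the bcat-1 libraries, against 2.62, 2.63 and 3.12 CPM in the L4440 libraries. The groups did not overlap, and the spread lay in the bcat-1 group, where the library labelled bcat-1 day 2 replicate 3 was the highest. DESeq2 called hrg-4 (adjusted p = 0.00667), and so did edgeR with no filter on low counts (adjusted p = 0.043).

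The other members were low. The epidermal hrg-2 stood at 0.644, 0.909 and 0.459 CPM in the bcat-1 libraries of day 2, against 0.333, 0.393 and 0.339 CPM in the L4440 libraries, without overlap (log2 0.95, SE 0.30, edgeR adjusted p = 0.346). The heme chaperone hrg-3 stood at 0.248, 0.182 and 0.561 CPM in the bcat-1 libraries, against 0.222, 0.0605 and 0.203 CPM in the L4440 libraries, and these overlapped (log2 0.87, SE 0.58, edgeR adjusted p = 0.766). Its antisense neighbour F58E6.11, with which it shares exon bases, had a log2 value of -0.19 (SE 0.45) at day 2. hrg-6 averaged 0.907 ± 0.22 CPM in bcat-1 and 0.832 ± 0.161 CPM in L4440 (log2 0.10, 95% interval -0.48 to 0.67, edgeR adjusted p = 0.927; -0.05 with plain library sizes). hrg-5 did not pass the filter on low counts, and its counts summed to 11 in the 3 bcat-1 libraries and 7 in the 3 L4440 libraries of day 2. Of the 7 members, 6 passed that filter. Of these, 2 rose and 0 fell at day 2 (DESeq2 called 3 higher and limma-voom 2), where edgeR called 0.206% of all genes higher and 0.213% lower. An unadjusted p under 0.05 at day 2 was found in 4 of the 6, all higher. Over all 14567 genes tested it was found in 1051, in either direction. Such counts for the lists and neighbours below stand against that number. In 4 of the 6 the bcat-1 libraries all lay above the L4440 libraries, as in 6.52% of all genes tested. The median log2 value of the 6 was 0.94, against -0.02 over all genes tested.

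**Figure D2:**
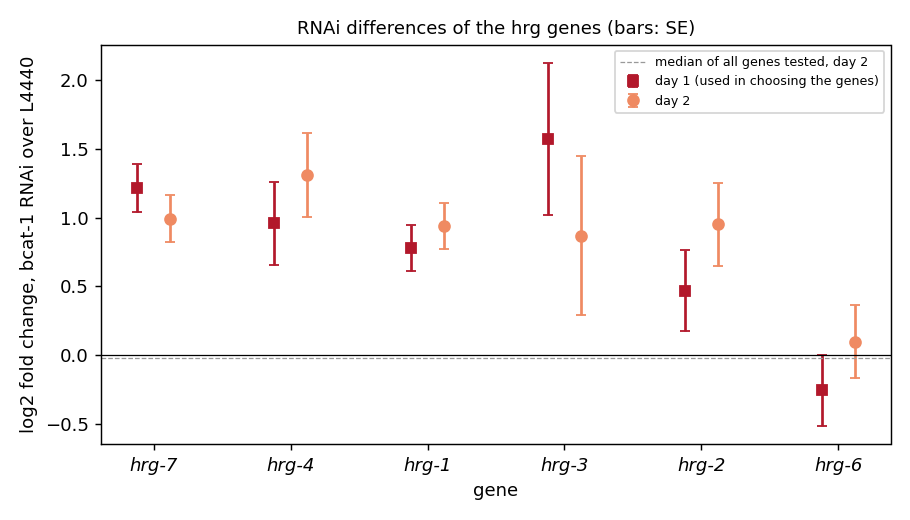
log2 fold change of bcat-1 RNAi over L4440 (vertical axis) for the 6 hrg genes that passed the filter, at day 1 (squares) and day 2 (circles), with SE bars. At day 2 the values run from 0.10 (hrg-6) to 1.31 (hrg-4), and the dashed line marks the median of all genes tested.

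The calls of hrg-7 and hrg-1 at day 2 depended on single libraries, and the sign of their values did not. With only the day 2 libraries in the fit, hrg-7 had a log2 value of 1.02 (edgeR adjusted p = 0.134) and hrg-1 of 0.96 (0.267), and edgeR called 0 of 14161 genes. An exact two-sided permutation test of 3 against 3 libraries gave p = 0.1 for hrg-7, hrg-1, hrg-4 and hrg-2, the smallest value it can give. For hrg-7 the edgeR call ended without any of 7 libraries: bcat-1 day 1 replicate 2 (0.99, adjusted p = 0.0634), L4440 day 1 replicate 1 (0.99, 0.0696), bcat-1 day 2 replicate 2 (1.02, 0.111), the library labelled bcat-1 day 2 replicate 3 (0.90, 0.0864) and L4440 day 2 replicates 1, 2 and 3 (1.09, 1.03 and 0.86, with 0.0577, 0.113 and 0.187). For hrg-1 it ended without any of 8: bcat-1 day 1 replicates 1, 2 and 3 (0.94, 0.94 and 0.92, with 0.0678, 0.069 and 0.0601), L4440 day 1 replicate 1 (0.94, 0.0757), bcat-1 day 2 replicate 2 (0.98, 0.107), the library labelled bcat-1 day 2 replicate 3 (0.85, 0.0861) and L4440 day 2 replicates 2 and 3 (both 0.87, with 0.174 and 0.222). Without the library labelled bcat-1 day 2 replicate 3, hrg-4 had a log2 value of 0.96 (adjusted p = 0.37). All these values were positive.

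**Figure D3:**
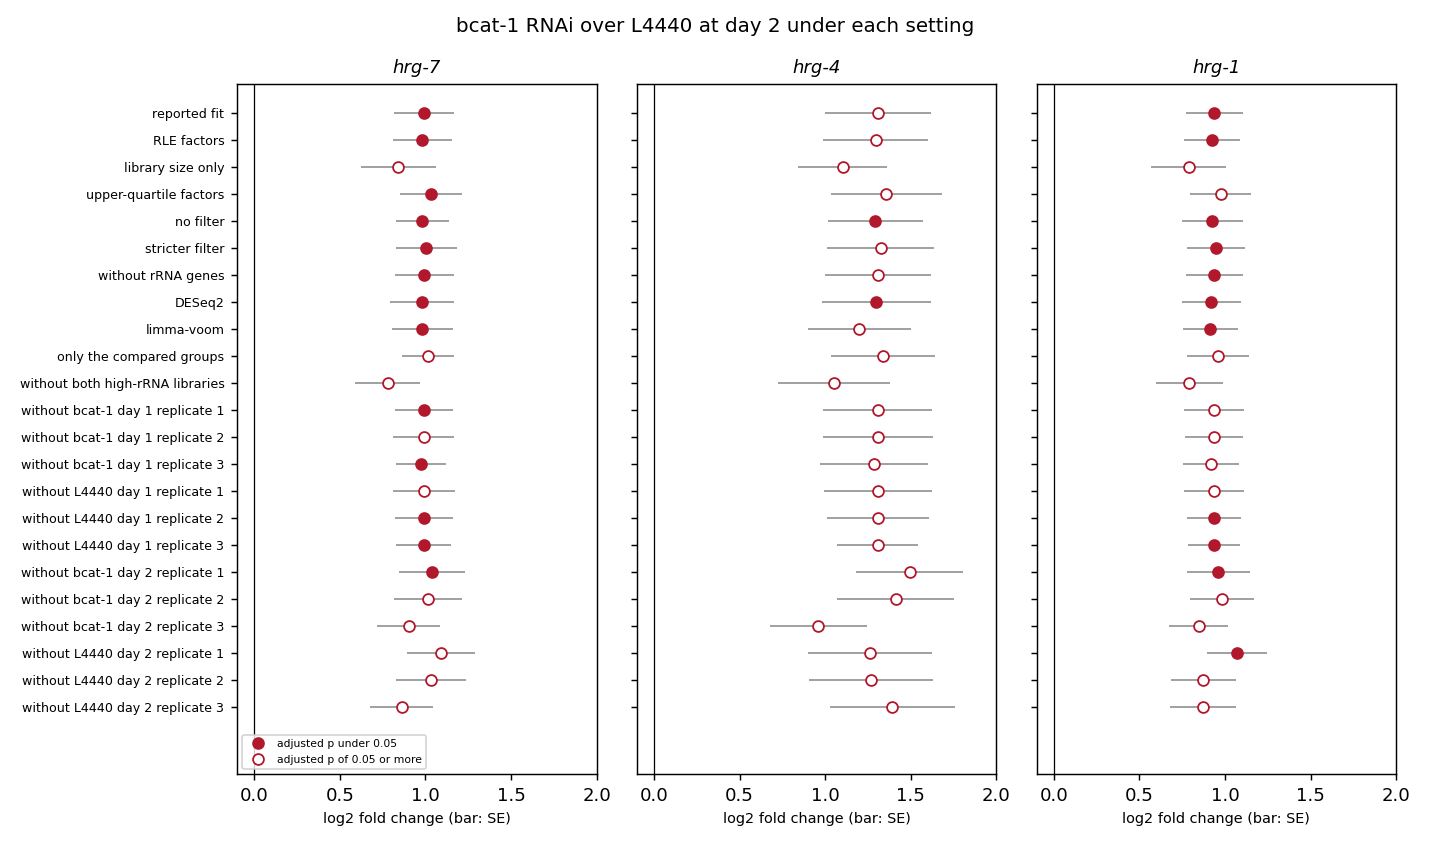
log2 fold change at day 2 (horizontal axis, bar: SE) of hrg-7, hrg-4 and hrg-1 under the reported fit, under 10 other settings and with each of the 12 libraries left out; filled points have an adjusted p under 0.05. Every point lies above 0, from 0.78 to 1.09 for hrg-7, from 0.96 to 1.49 for hrg-4 and from 0.79 to 1.07 for hrg-1.

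The library labelled bcat-1 day 2 replicate 3 has a bcat-1 level above that of the control libraries, yet its hrg-7 (61.1 CPM), hrg-4 (9.94 CPM) and hrg-1 (14.1 CPM) levels were the highest of the 6 day 2 libraries. Whether its ribosomal RNA share plays a part in these levels was not tested. With plain library sizes, which moved the median of all genes at day 2 to -0.14, hrg-7 had a log2 value of 0.84 (edgeR adjusted p = 0.369) and hrg-1 of 0.79 (0.45). With both high-rRNA libraries left out, hrg-7 had 0.78 (0.361), hrg-1 0.79 (0.378) and hrg-4 1.05 (0.74).

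In whole worms, fewer cells of a type and less RNA per cell cannot be told apart, and intestine is the known site of hrg-1, hrg-4 and hrg-7. The summed level of the 13 intestine markers was 3077 to 3183 CPM in bcat-1 and 2899 to 3101 CPM in L4440 at day 2, with overlap, and 3743 to 4025 CPM in bcat-1 and 3549 to 3780 CPM in L4440 at day 1, with overlap. Single markers went both ways at day 2, with log2 values from -0.41 to 0.72 and an unadjusted p under 0.05 in 2 higher and 2 lower. Whether the amount of intestine plays a part in the hrg values was not tested. Per unit of the marker sum at day 2, hrg-7 stood at 16.3 to 19.4 CPM per 1000 CPM of intestine markers in bcat-1 and 7.78 to 10.1 in L4440. The same ratio was 3.87 to 4.48 in bcat-1 and 2.05 to 2.52 in L4440 for hrg-1, and 1.59 to 3.15 in bcat-1 and 0.844 to 1.08 in L4440 for hrg-4. Embryo markers summed to 253 to 269 CPM in bcat-1 and 252 to 255 CPM in L4440 at day 2, with overlap. Epidermis markers, which bear on hrg-2, summed to 375.5 to 496 CPM in bcat-1 and 396 to 550.4 CPM in L4440, with overlap.

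At day 1, in the contrast that brought hrg-7 to notice, edgeR called 0.0% of 14567 genes; 297 had an unadjusted p under 0.05, DESeq2 called 16 and limma-voom 0. hrg-7 stood at 64.7, 68.4 and 93.6 CPM in the bcat-1 libraries, against 33.3, 37.7 and 26.7 CPM in the L4440 libraries (log2 1.21, SE 0.17). hrg-1 stood at 12.0, 11.0 and 13.7 CPM in the bcat-1 libraries, against 7.08, 8.47 and 5.81 CPM in the L4440 libraries (log2 0.78, SE 0.16). hrg-4 stood at 6.83, 5.61 and 5.93 CPM in the bcat-1 libraries, against 3.57, 4.07 and 1.76 CPM in the L4440 libraries (log2 0.96, SE 0.30). For these 3 genes, as for hrg-2 and hrg-3, every bcat-1 library of day 1 lay above every L4440 library of day 1, as in 5.85% of all genes tested. The same order held for hrg-7, hrg-1, hrg-4 and hrg-2 on both days, as in 0.968% of all genes tested; the day 1 share is set by the choice of the family and nothing is read from it.

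Of the low members at day 1, hrg-3 averaged 0.431 ± 0.201 CPM in bcat-1 and 0.144 ± 0.0212 CPM in L4440 (log2 1.57, SE 0.55), from 45 counts in the 3 bcat-1 libraries and 17 in the 3 L4440 libraries. hrg-2 averaged 0.611 ± 0.14 CPM in bcat-1 and 0.438 ± 0.0394 CPM in L4440 (log2 0.47, SE 0.29). hrg-6 had a negative value, at 0.61 to 0.969 CPM in bcat-1 and 0.973 to 1.00 CPM in L4440 (log2 -0.26, SE 0.26), without overlap, as in 4.65% of all genes tested. hrg-5, which did not pass the filter, had 4 counts in the 3 bcat-1 libraries and 7 in the 3 L4440 libraries of day 1, too few to describe a difference. The effect at day 2 minus that at day 1 was -0.22 (SE 0.24) for hrg-7, 0.16 (SE 0.23) for hrg-1 and 0.35 (SE 0.43) for hrg-4, each smaller than its error. It was -0.70 (SE 0.81) for hrg-3, 0.48 (SE 0.42) for hrg-2 and 0.35 (SE 0.37) for hrg-6. These differences hold the day 1 contrast and were not tested.

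The comparison of day 2 with day 1 asks how the hrg genes stood with age on each food. These comparisons use the day 1 libraries in which the family was noticed, so they are given as a description, without a test. On bcat-1 RNAi the log2 difference with age was 0.06 for hrg-1 (SE 0.16), 0.17 for hrg-4 (SE 0.30), 0.18 for hrg-2 (SE 0.29), -0.50 for hrg-3 (SE 0.52) and 0.11 for hrg-6 (SE 0.26). The signs for hrg-1, hrg-4 and hrg-6 turned with plain library sizes, to -0.06, -0.02 and -0.02. On L4440 it was -0.10 for hrg-1 (SE 0.17), -0.18 for hrg-4 (SE 0.31), -0.30 for hrg-2 (SE 0.31), 0.20 for hrg-3 (SE 0.61) and -0.25 for hrg-6 (SE 0.26). Each of these differences was smaller than its error. The hrg-2 libraries of day 2 all lay below those of day 1 on L4440, as in 13.1% of all genes tested. hrg-7 averaged 55.5 CPM at day 2 and 75.6 CPM at day 1 on bcat-1 RNAi, without overlap (log2 -0.45), as in 9.95% of all genes tested, and 27.8 CPM at day 2 and 32.5 CPM at day 1 on L4440, with overlap (log2 -0.23). The order of the group means of hrg-7 was therefore bcat-1 day 1, bcat-1 day 2, L4440 day 1 and L4440 day 2, and only the last pair of neighbours overlapped. For hrg-1 and for hrg-4 the order was bcat-1 day 2, bcat-1 day 1, L4440 day 1 and L4440 day 2, and in each the pair on the same food overlapped. The intestine marker sum averaged 3138 CPM at day 2 and 3930 at day 1 on bcat-1 RNAi. Per 1000 CPM of it, hrg-7 averaged 17.68 at day 2 and 19.36 at day 1 on bcat-1 RNAi, with overlap. On L4440 hrg-7 averaged 9.28 at day 2 and 8.861 at day 1, with overlap. By this ratio hrg-1 stood at 3.868 to 4.479 at day 2 and 2.739 to 3.669 at day 1 on bcat-1 RNAi, without overlap. hrg-1 on L4440 and hrg-4 on both foods overlapped. The sum holds asp-1, which alone averaged 798 CPM at day 2 and 1537 CPM at day 1 on bcat-1 RNAi. The median log2 age value of the 13 intestine markers there was -0.105. hrg-1 itself averaged 12.8 CPM at day 2 and 12.2 CPM at day 1 on bcat-1 RNAi, with overlap. The ratios with age thus rest largely on asp-1, and they were not tested.

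Across the 12 libraries the levels of hrg-7, hrg-1 and hrg-4 followed one another. Pearson's r of log2 CPM was 0.93 between hrg-1 and hrg-7, 0.92 between hrg-1 and hrg-4 and 0.83 between hrg-4 and hrg-7. These values hold the RNAi difference that the 3 genes share, and libraries also share depth and composition. With each library taken as its deviation from its group mean, r over the same 12 libraries was 0.83, 0.63 and 0.43 for these pairs. By r over all 12 libraries without that step, 0 of 10258 other genes with a mean of at least 2 CPM were closer to hrg-1 than hrg-7 or hrg-4, and 26 were closer to hrg-4 than hrg-7. Y54G11A.7 (0.95) and ctsa-4.1 (0.94) were closer to hrg-7 than hrg-1 was. ncx-8 (0.90), T11G6.3 (0.89) and tag-10 (0.89) were closer to hrg-7 than hrg-4 was. As deviations from group means, 1 of the 3 outside genes most like hrg-1 over the 12 libraries, B0252.1 (0.66), was closer to hrg-1 than hrg-4 was. Genes beyond these 3 were not counted by that measure. Over the 12 libraries hrg-6 had an r of -0.03 with hrg-7, 0.00 with hrg-1 and 0.02 with hrg-4. As deviations from group means these were 0.41, 0.37 and 0.29, close to the 0.43 between hrg-4 and hrg-7.

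**Figure D4:**
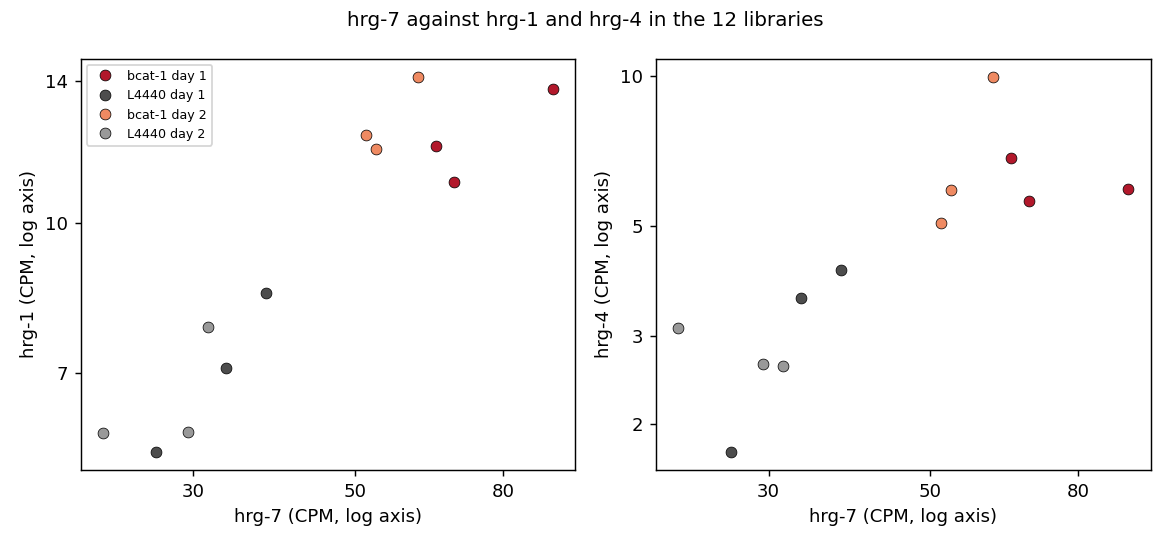
hrg-7 (horizontal, CPM, log axis) against hrg-1 and hrg-4 (vertical, CPM, log axis), with 1 point per library. The bcat-1 libraries of both days lie at upper right, with hrg-7 from 51.8 to 93.6 CPM, and the L4440 libraries at lower left, with hrg-7 from 22.6 to 37.7 CPM.

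The genes outside the family most like hrg-7 over the 12 libraries were Y54G11A.7 (r = 0.95), ctsa-4.1 (0.94), ncx-8 (0.90), T11G6.3 (0.89) and tag-10 (0.89). None of these 5 passed edgeR's test at day 2, where the lowest adjusted p was 0.0861 (ctsa-4.1, log2 0.69) and the others ran from 0.212 to 0.764. Most like hrg-1 were F59B1.8 (r = 0.92), the nuclear hormone receptor gene nhr-100 (0.89) and B0252.1 (0.89), and F59B1.8 rose at day 2 (log2 0.61, edgeR adjusted p = 0.0444). Most like hrg-4 were ech-7 (0.89), the invertebrate lysozyme gene ilys-5 (0.89) and cpr-8 (0.89), a gene of the cathepsin B-like protease family, and ilys-5 rose at day 2 (log2 0.91, edgeR adjusted p = 0.0262). The call of F59B1.8 held in 1 and that of ilys-5 in 4 of 12 fits with 1 library left out, and without the library labelled bcat-1 day 2 replicate 3 their values were 0.48 (adjusted p = 0.0834) and 0.72 (0.0508). Both calls ended with plain library sizes (0.944 and 0.15). With plain library sizes the r with hrg-7 was 0.95 for Y54G11A.7 and 0.93 for ctsa-4.1 but 0.78 for ncx-8 and 0.77 for T11G6.3, and that of nhr-100 with hrg-1 was 0.71. As deviations from group means, r was 0.85 for Y54G11A.7 and 0.42 for ncx-8 with hrg-7, and 0.40 for F59B1.8 with hrg-1.

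None of the tested genes beside the hrg genes on the chromosome passed the test at day 2. Taking for each member the nearest 2 tested genes on either side that are no members gave 20 genes, of which 0 passed edgeR's test (unadjusted p under 0.05 in 1, and 0 called by DESeq2 or limma-voom), with log2 values from -0.68 to 0.35 and a median of 0.08. C15C8.7, whose exon end overlaps that of hrg-7, had a log2 value of 0.18 (SE 0.13). alh-3 and fkb-1, which flank the hrg-4 cluster, had values of -0.07 (SE 0.16) and 0.08 (SE 0.10). cdr-4 and cdr-7, which flank hrg-2, had values of 0.19 (SE 0.16) and 0.35 (SE 0.15).

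No other listed gene of heme handling passed the test of RNAi at day 2. Of 9 tested genes of this list, 0 passed edgeR's test (unadjusted p under 0.05 in 1, lower, and 0 called by DESeq2 or limma-voom), and the median log2 value was -0.05, against -0.02 over all genes tested. The heme exporter gene mrp-5 stood at 141, 121 and 81.2 CPM in the bcat-1 libraries of day 2, against 128, 110 and 104 CPM in the L4440 libraries (log2 0.00, 95% interval -0.38 to 0.39). hrg-10, which with hrg-9 is related to the human heme trafficking gene TANGO2, stood at 10.9, 10.4 and 16.3 CPM in the bcat-1 libraries of day 2, against 16.4, 19.5 and 18.5 CPM in the L4440 libraries. Its groups did not overlap, and it did not pass the test (log2 -0.54, SE 0.16, edgeR adjusted p = 0.294). With age hrg-10 fell on bcat-1 RNAi, to 12.5 ± 3.28 CPM at day 2, against 21.1 ± 1.59 CPM at day 1 (log2 -0.76, SE 0.16, edgeR adjusted p = 0.0228). That call held in 7 of 12 fits with 1 library left out, and without the library labelled bcat-1 day 2 replicate 3 the value was -1.01 (adjusted p = 9.47e-04). On L4440 hrg-10 was lower at day 2 as well, without overlap, as in 13.1% of all genes tested. It did not pass the test there (log2 -0.43, SE 0.16, edgeR adjusted p = 0.171). hrg-9 averaged 1.39 ± 0.305 CPM in bcat-1 and 1.199 ± 0.366 CPM in L4440 at day 2 (log2 0.19, SE 0.28). The ferrochelatase-like gene fecl-1 had a log2 value of -0.12 (SE 0.08), the cytochrome c heme lyase gene cchl-1 of 0.02 (SE 0.12), and the heme A genes cox-10 and cox-15 of -0.05 (SE 0.12) and -0.16 (SE 0.11).

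None of the listed genes for heme-carrying proteins passed the test of RNAi at day 2. The list holds genes for catalases, cytochromes, peroxidases, guanylate cyclases and other enzymes, among them the tryptophan dioxygenase gene tdo-2 and the sulfite oxidase gene suox-1. Of 25 tested genes, 0 passed edgeR's test at day 2 (unadjusted p under 0.05 in 2, both lower, with 1 lower by DESeq2 and 0 by limma-voom), and 7 had positive and 18 negative values (median -0.07). Over all 14567 genes tested, 1051 had an unadjusted p under 0.05 at day 2. The 2 lower genes, named after their values were seen, were tdo-2 at 17.2 CPM in bcat-1 and 25.99 CPM in L4440 (log2 -0.60, SE 0.13, edgeR adjusted p = 0.118) and suox-1 at 23.1 CPM in bcat-1 and 28.2 CPM in L4440 (log2 -0.29, SE 0.08, adjusted p = 0.249). The catalase genes ctl-1, ctl-2 and ctl-3 had log2 values of 0.29, 0.07 and -0.43, and these are close relatives whose shared reads the counting could split. The peroxidase gene mlt-7 fell with age on bcat-1 RNAi, to 12.9 ± 2.52 CPM at day 2, against 19.1 ± 1.25 CPM at day 1 (log2 -0.57, edgeR adjusted p = 0.0473), a call that held in 2 of 12 fits with 1 library left out and ended with plain library sizes (0.291). Its age value on L4440 was also negative (log2 -0.41) and did not pass the test. Of 28 tested globin genes, 0 passed (unadjusted p under 0.05 in 1, lower, and 0 called by DESeq2 or limma-voom), with 15 positive and 13 negative values (median 0.02). glb-1, the globin gene with the highest level, averaged 12.8 CPM in bcat-1 and 16.96 CPM in L4440 at day 2 (log2 -0.41, edgeR adjusted p = 0.432).

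The relatives of hrg-7 and the pathway it signals through were examined next. Of 11 tested aspartic protease genes of the asp family, 0 passed edgeR's test of RNAi at day 2 (unadjusted p under 0.05 in 1, higher, and 0 called by DESeq2 or limma-voom), with 3 positive and 8 negative values (median -0.12). With age, 4 of them fell and 1 rose on bcat-1 RNAi, where edgeR called 4.07% of all genes, and 1 fell and 1 rose on L4440, where it called 2.3%. On bcat-1 RNAi asp-1 fell to 798 ± 91.2 CPM at day 2, against 1537 ± 145 CPM at day 1 (log2 -0.94, edgeR adjusted p = 8.04e-04), as did asp-8 (-1.14, 0.00679) and asp-2 (-0.51, 0.011), and asp-17 rose (1.34, 0.00888). On L4440 asp-1 fell (-0.72, 0.00752) and asp-17 rose (1.097, 0.0345). There asp-8 and asp-2 had log2 values of -0.49 and -0.24 and did not pass the test. With plain library sizes the calls of asp-2 on bcat-1 RNAi (adjusted p = 0.226) and of asp-1 (0.156) and asp-17 (0.056) on L4440 ended, and that of asp-17 on L4440 held in 7 of 12 fits with 1 library left out. asp-1 is also 1 of the 13 intestine markers. The BMP ligand DBL-1 from neurons is known to act in the HRG-7 response. Of 16 tested genes of the BMP pathway, 0 passed the RNAi test at day 2 (unadjusted p under 0.05 in 2, against 1051 of all 14567 genes tested, and 0 called by DESeq2 or limma-voom), with a median log2 value of 0.03. dbl-1 averaged 3.79 CPM in bcat-1 and 3.62 CPM in L4440 (log2 0.07), and the Smad gene sma-2 4.77 CPM in bcat-1 and 3.49 CPM in L4440 (log2 0.44, edgeR adjusted p = 0.531). lon-1, which encodes a negative regulator of body length in this pathway, fell with age on bcat-1 RNAi, to 29.03 ± 2.84 CPM at day 2, against 46.2 ± 2.21 CPM at day 1 (log2 -0.67, edgeR adjusted p = 0.00395). That call ended with plain library sizes (adjusted p = 0.126). The age value of lon-1 on L4440 was also negative (log2 -0.375) and did not pass the test.

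**Figure D5:**
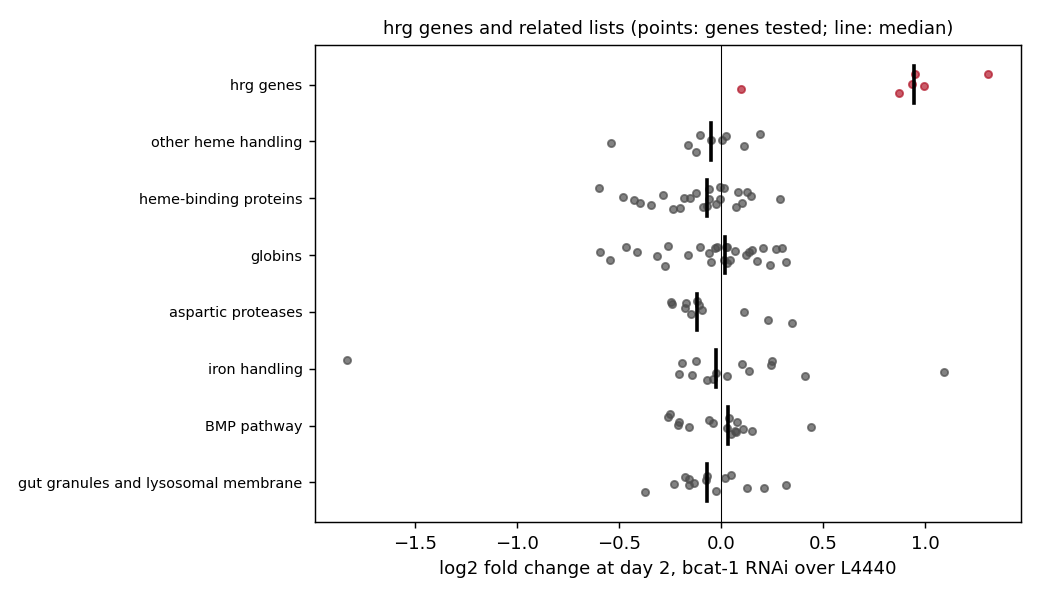
log2 fold change of bcat-1 RNAi over L4440 at day 2 (horizontal axis) of each tested gene of the hrg family (red) and of 7 related lists (grey), with the median of each list as a black line. The hrg genes have a median of 0.94 and the other lists medians from -0.12 to 0.03.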

How the data were processed

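Whole N2 hermaphrodites gave 12 libraries, 3 in each of 4 groups, numbered in accession order. Per the submitters' processing notes, the authors used bcl2fastq 1.8.4, STAR 2.4.1d and featureCounts 1.4.6-p4 with genome build WBcel235. The libraries were made with the TruSeq RNA v2 kit, per the labels. The deposited table holds whole-number read counts per gene, and every value comes from it; the authors' other table was not used. The annotation release, strand setting and treatment of multiply mapped reads are not given in the sources used here.

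Symbols (43693 IDs matched) and positions come from the Ensembl 115 annotation of WBcel235. The main tool was edgeR 4.0.16 in R 4.3.3: filterByExpr by group left 14567 genes, and 1 quasi-likelihood model with TMM factors and 4 group means (8 residual degrees of freedom) was fitted to all libraries. Tests are two-sided, p-values are Benjamini-Hochberg adjusted over all genes tested, and the threshold is 0.05. SD belongs to CPM and SE to log2 fold changes. The fit was tested on simulated data. There it called 46% of the 2-fold and 25% of the 1.5-fold changes made at day 2, and 4.1% of its calls were false. The simulated spread followed the trend over all genes, without spread particular to single genes. No simulated library had a raised share of ribosomal RNA, so these shares need not hold for the real libraries. DESeq2 1.42.0 and limma-voom (limma 3.58.1) were alternatives. Exact permutation tests used scipy 1.17.1. Intervals cover the spread between libraries.

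The members and lists (15 lists, 217 entries, 212 in the table) were chosen with earlier results of these data known. Named genes are all members, bcat-1, up to 4 genes past the test per list and comparison, and the 5 genes most like hrg-7 and 3 most like each other member. Further genes of the heme, iron and neighbour lists were named after their values were seen.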

Additional observations from a re-analysis of the deposited data

How the results depend on the processing

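Depth limits hrg-2, hrg-3, hrg-5 and hrg-6, which had at most 45 counts in a library, and no test was made for hrg-5 in the reported fit (without a filter its log2 value at day 2 was 0.68, edgeR adjusted p = 0.823). No paired analysis was possible because the labels carry no replicate numbers. The cause was not tested for any change given here. For RNAi at day 2 the log2 value of hrg-7 lost its call with plain library sizes (0.84), with only the compared groups (1.02) and without both high-rRNA libraries (0.78), and that of hrg-1 with plain library sizes (0.79), upper-quartile factors (0.97), only the compared groups (0.96) and without both high-rRNA libraries (0.79). hrg-4 gained a call with no filter (1.29) and with DESeq2 (1.298). hrg-6 turned negative with plain library sizes (-0.051) and without both high-rRNA libraries (-0.20). With each library left out in turn, the values at day 2 ran from 0.86 to 1.09 for hrg-7, 0.85 to 1.07 for hrg-1, 0.96 to 1.49 for hrg-4, 0.66 to 1.11 for hrg-2, 0.36 to 1.21 for hrg-3 and -0.079 to 0.27 for hrg-6. Over all genes, edgeR called 61 for RNAi at day 2, against 19 with plain library sizes, 195 by DESeq2, 0 with only the compared groups, 30 without both high-rRNA libraries and 15 to 81 with a library left out. For RNAi at day 1 it called 0, against 7 with no filter, 16 by DESeq2, 1 with only the compared groups, 1 without both high-rRNA libraries and 0 to 1 with a library left out. For age on L4440 it called 335, against 100 with plain library sizes, 867 with no filter, 999 by DESeq2 and 79 to 1017 with a library left out. For age on bcat-1 RNAi it called 593, against 244 with plain library sizes, 1021 by DESeq2, 222 with only the compared groups and 229 to 657 with a library left out. For the difference of the RNAi effects it called 0, against 1 with no filter and 13 by DESeq2. Age values close to 0 changed sign. On bcat-1 RNAi the value with plain library sizes and that without both high-rRNA libraries were -0.064 and -0.036 for hrg-1, -0.018 and -0.18 for hrg-4, and -0.022 and -0.076 for hrg-6. With each library left out in turn, age values on bcat-1 RNAi ran from -0.037 to 0.17 for hrg-1, -0.11 to 0.39 for hrg-2, -0.18 to 0.36 for hrg-4 and -0.076 to 0.28 for hrg-6, and on L4440 from -0.23 to 0.046 for hrg-1, -0.14 to 0.57 for hrg-3 and -0.46 to 0.054 for hrg-4.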

Other observations

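Iron handling, which shares the metal of heme, had 0 of 15 tested genes past edgeR's test of RNAi at day 2 (unadjusted p under 0.05 in 4, 3 higher and 1 lower, with 1 called higher by DESeq2 and 0 by limma-voom). Over all 14567 genes tested, 1051 had an unadjusted p under 0.05 in that comparison. The genes named in this paragraph were chosen after their values were seen. The ferroportin gene fpn-1.2 averaged 4.38 CPM in bcat-1 and 2.06 CPM in L4440 at day 2, without overlap (log2 1.09, SE 0.24, edgeR adjusted p = 0.118), and its relative fpn-1.1 averaged 24.6 CPM in bcat-1 and 18.4 CPM in L4440, also without overlap (log2 0.41, SE 0.11, adjusted p = 0.222). At day 2, 6.52% of all genes tested were higher in bcat-1 without overlap. On bcat-1 RNAi fpn-1.1 rose with age, to 24.6 ± 3.44 CPM at day 2, against 16.4 ± 1.65 CPM at day 1 (log2 0.58, edgeR adjusted p = 0.0155), a call that held in 10 of 12 fits with 1 library left out and ended with plain library sizes (log2 0.44, adjusted p = 0.233). Its age value on L4440 was also positive (log2 0.27) and did not pass the test. The ferritin gene ftn-1 was low and averaged 0.513 CPM in bcat-1 and 1.87 CPM in L4440 at day 2, without overlap (log2 -1.83, SE 0.71, edgeR adjusted p = 0.564). The other ferritin gene ftn-2 averaged 177 CPM in bcat-1 and 150 CPM in L4440, with overlap (log2 0.25, edgeR adjusted p = 0.633).

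Genes of gut granules, the lysosome-related organelles of the intestine, and of lysosomal membranes had 0 of 14 tested members past edgeR's test of RNAi at day 2 (0 with an unadjusted p under 0.05 and 0 called by DESeq2 or limma-voom), with 5 positive and 9 negative values (median log2 -0.07). F22B5.4, written into the list of heme handling, averaged 0.573 CPM in bcat-1 and 0.566 CPM in L4440 at day 2 (log2 -0.10, SE 0.62). Among the genes most like the low members over the 12 libraries, the phosphoethanolamine methyltransferase gene pmt-1 came first for hrg-2 (r = 0.84), zzz-1 for hrg-3 (0.90) and the neuropeptide gene nlp-9 for hrg-6 (0.81). With plain library sizes the r of zzz-1 with hrg-3 was 0.58.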
